A study of Mus musculus with 4 samples.

Results

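The 8 genes Mgat4c, Rbfox1, Kcnh5, Gramd1b, Spock3, Egfem1, Gfra1 and Mgll, of 31053 genes in the count tables, were followed through nuclei of mouse kidney slices enriched for medulla. They had been selected on differences between genotypes in the collecting duct principal cells of these same mice. On average 6 of them were higher and 2 lower in knockouts. Their differences in those cells are therefore given as a description and carry no test. Each of the 8 matched 1 row of the tables by its symbol.

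The study examined the transcription factor TFAP2A (AP-2 alpha) in the collecting duct by single-nucleus RNA-seq, which counts the RNA molecules of single nuclei in droplets by unique molecular identifiers (UMIs). The knockout group held 2 male mice (Cre+, Tfap2aFlox/Flox) in which Hoxb7Cre, active in the collecting duct and other epithelia of the ureteric lineage, removes exons 5 and 6 of Tfap2a. The control group held 2 male mice (Cre-, Tfap2aFlox/Flox) that carried the same floxed alleles without the recombinase. All 4 mice were 12 weeks old, and each gave 1 library from a middle slice of kidney, trimmed at the cortex so that medullary cells were enriched. Cortical nuclei remained, with 18 to 41 podocytes and 136 to 241 nuclei of the distal convoluted tubule per library.

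Principal cells of the collecting duct take up sodium through the epithelial sodium channel ENaC, whose subunits include Scnn1b and Scnn1g, and water through aquaporins such as Aqp2 and Aqp3. Upstream, the connecting tubule shares the sodium channel and also reabsorbs calcium. Downstream, the inner medullary collecting duct carries urea transporters and osmoprotective proteins such as Cryab. AP-2 factors bind GC-rich palindromes and act in epithelia and in the neural crest.

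Between 5430 and 7998 nuclei per library passed the filters, 27343 in all, with a median of 2506 to 2797 UMIs. The libraries held 22179410 to 44964099 UMIs. Pairs of libraries shared 7 to 18 barcodes of kept nuclei, where 4.94 to 9.11 were expected for random draws. In total, 538 nuclei were sodium channel principal cells. Control mouse 1 gave 104 of these, control mouse 2 gave 209, knockout mouse 1 gave 139 and knockout mouse 2 gave 86. Scnn1b, which defined the class, had a UMI in 75.5% of them. A UMI of Aqp2 was found in 95.4%, of Fxyd4 in 91.3% and of Scnn1g in 66.2%, where 37.8%, 9.62% and 61.7% of connecting tubule nuclei had one. Genes of other segments were found too, Lrp2 of the proximal tubule in 25.5% and Slc12a1 of the thick ascending limb in 21.4%. All these genes took part in the clustering, so the shares describe the class and do not test its label. They divided into 327 nuclei with high Aqp3 and 211 with low Aqp3. The share of the Aqp3-low part was 40.4% and 37.3% in control mice and 32.4% and 53.5% in knockout mice. Tfap2a itself stood at 109 and 126 CPM (UMIs of a gene per 1000000 UMIs of the class) in control mice and 80.0 and 155 CPM in knockout mice, so the groups overlapped. Counts summed over the whole gene do not separate the deleted exons from the rest. In bulk sums of a class, fewer expressing nuclei and less RNA per nucleus cannot be told apart, so shares of nuclei are given beside the levels.

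In sodium channel principal cells, 6 genes were higher in both knockout mice than in both control mice, and 1, Mgll, was lower. Among all 11154 genes with at least 10 UMIs in the class, 15.3% were higher and 14.8% lower in this way. Gramd1b, the other gene that was lower on average, overlapped between the groups. In the Aqp3-high part the same count was 6 higher and 1 lower, where 16.4% and 16.6% of all genes stood apart in these directions. In the Aqp3-low part it was 3 higher and 2 lower, where 15.1% and 14.4% of all genes did. Nothing is read from these counts, since the genes were chosen by this contrast. The plot of levels by mouse shows the 4 values behind each.

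**Figure D1:**
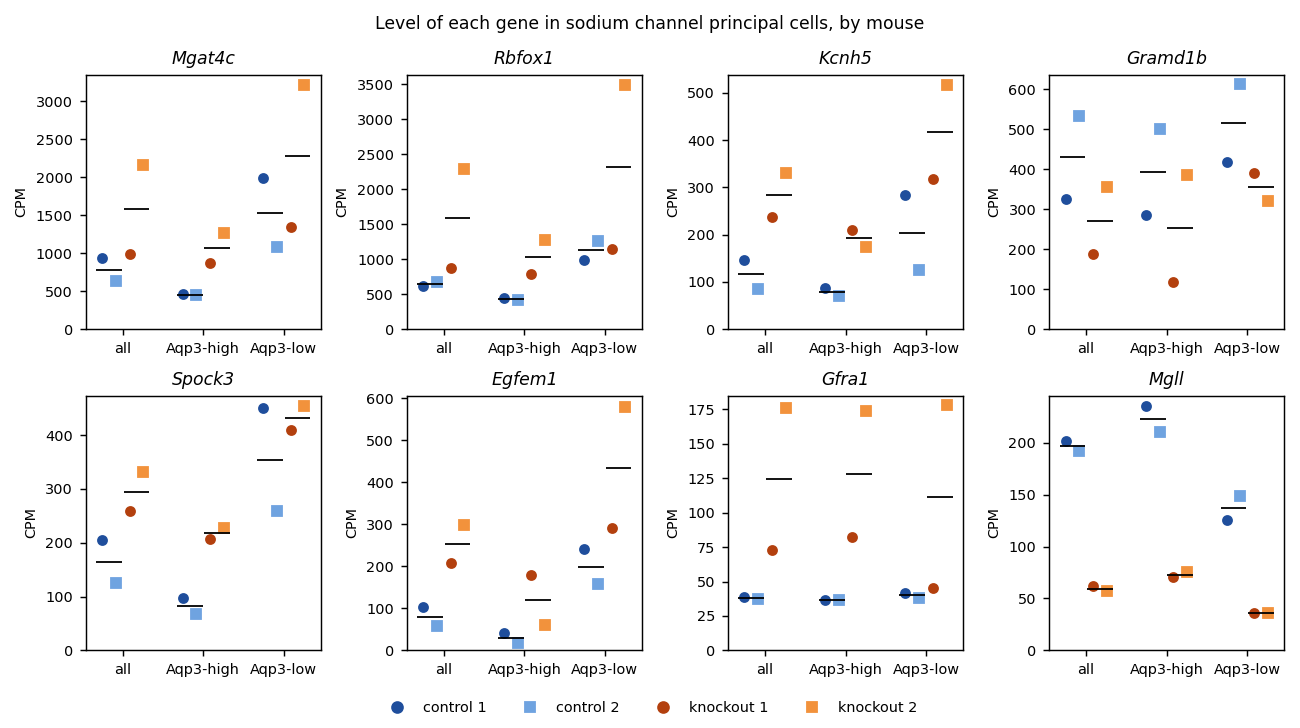
Level of each gene (CPM, linear axis from 0) in all sodium channel principal cells and in their Aqp3-high and Aqp3-low parts; each point is 1 mouse and each bar the mean of 2 mice. Mgll sat at 57.2 to 61.7 CPM in knockout mice against 192 to 202 CPM in control mice, while knockout mouse 2 stood far above the other 3 mice for Rbfox1.

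Mgat4c encodes an enzyme of the family that adds N-acetylglucosamine branches to N-glycans, and it spans 710 kb of chromosome 10 (101681487 to 102391851, GRCm38.p6). Its level in sodium channel principal cells was 932 and 634 CPM in control mice and 994 and 2159 CPM in knockout mice. Both knockout mice lay above both control mice, but knockout mouse 1 only just above control mouse 1. The mean of log2(CPM + 1) was higher by 0.93 (SE 0.62, n = 2 mice per group). In the Aqp3-high part the groups were further apart, with 466 and 445 CPM against 876 and 1263 CPM. In the Aqp3-low part they overlapped, with 1990 and 1077 CPM against 1346 and 3213 CPM. With both parts weighted equally the difference was 0.71 and the groups overlapped, and they also overlapped when the CPM was averaged over nuclei.

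Rbfox1 encodes an RNA-binding splicing factor best known from neurons and muscle, and its locus of 1528 kb on chromosome 16 (5884793 to 7412480) is the longest of the 8. It was at 612 and 670 CPM in control mice and at 878 and 2294 CPM in knockout mice, so knockout mouse 2 held most of the difference of 1.15 (SE 0.70, log2 scale, n = 2 per group). Without knockout mouse 2 the difference fell to 0.45. In the Aqp3-high part the values were 443 and 417 CPM in control mice and 785 and 1278 CPM in knockout mice, with no overlap. In the Aqp3-low part, control mouse 2 at 1263 CPM lay above knockout mouse 1 at 1155 CPM.

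Kcnh5 encodes a voltage-gated potassium channel of the EAG family, on chromosome 12 (74897217 to 75177332). Control mice held 46 and 60 UMIs of it in these nuclei (147 and 85.9 CPM) and knockout mice 104 and 81 UMIs (238 and 331 CPM). The knockout mice were higher without overlap in the whole class and in both of its parts, and the log2 difference in the class was 1.31 (SE 0.45, n = 2 per group). In the Aqp3-high part the level went from 87.7 and 69.5 CPM to 211 and 174 CPM.

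Spock3, a secreted proteoglycan of the testican family on chromosome 8 (62951000 to 63357101), was at 205 and 125 CPM in control mice and at 258 and 331 CPM in knockout mice. The log2 difference was 0.87 (SE 0.40, n = 2 per group). In the Aqp3-high part the groups were well apart, at 96.9 and 67.4 CPM against 208 and 227 CPM. In the Aqp3-low part the groups overlapped, at 450 and 258 CPM against 409 and 454 CPM.

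Egfem1, which encodes a protein with EGF-like and EMI domains on chromosome 3 (29081653 to 29691058), was at 102 and 58.7 CPM in control mice and at 208 and 299 CPM in knockout mice. The log2 difference was 1.67 (SE 0.47, n = 2 per group) and the groups did not overlap. It is foremost a gene of the connecting tubule in these data, at 3772 and 2714 CPM there in control mice. Few principal cell nuclei held it: 8 of 104 and 9 of 209 in control mice and 21 of 139 and 12 of 86 in knockout mice. In control mouse 1, a single nucleus with 18 UMIs held most of the 32 UMIs. The 5 nuclei with most UMIs held 90.6% and 87.8% of the UMIs in control mice and 56.0% and 76.7% in knockout mice. Without those 5 nuclei of each mouse, 3 and 5 UMIs were left in control mice and 40 and 17 in knockout mice, too few in the controls for a fold.

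Markers of the connecting tubule were also higher in knockout mice, as sums over the class. Summed over 6 markers, their level in sodium channel principal cells was 1791 and 952 CPM in control mice and 2876 and 2457 CPM in knockout mice, and 3 of the 6 were higher without overlap. None of the 6 was at 0, and Calb1 stood at 333 and 106 CPM against 478 and 454 CPM. In the Aqp3-high part the sum was 831 and 633 CPM in control mice against 2489 and 1573 CPM, with 3 markers higher without overlap. In the Aqp3-low part it was 3970 and 1699 CPM against 4028 and 3498 CPM, with 0 higher without overlap. Egfem1 was higher without overlap in both parts, at 241 and 158 CPM against 291 and 579 CPM in the Aqp3-low part. In the nuclei without a UMI of Calb1 (69 and 172 in the controls, 73 and 53 in the knockouts) the log2 difference of Egfem1 was 2.79. The groups did not overlap there, but the value rests on a part of the 32 and 41 UMIs of the control mice. The part of these markers in the difference was not tested. Under 1% mitochondrial UMIs, a limit that left 13 nuclei of control mouse 1, the log2 difference of Egfem1 was 0.38 and the groups overlapped.

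Gfra1 encodes the receptor that binds GDNF and presents it to the tyrosine kinase RET, the pathway by which the ureteric bud branches, and it lies on chromosome 19 (58235581 to 58455946). It was low in sodium channel principal cells, with 12 and 26 UMIs in control mice (38.4 and 37.2 CPM) and 32 and 43 UMIs in knockout mice (73.2 and 176 CPM). The control mice were nearly equal, the knockout mice lay above them and differed from each other, and the log2 difference was 1.56 (SE 0.63, n = 2 per group). Empty droplets held Gfra1 at 29.7 and 17.3 CPM in control libraries and 27.8 and 16.9 CPM in knockout libraries, so the control nuclei stood not far above them. In the Aqp3-low part, knockout mouse 1 at 45.5 CPM lay just above control mouse 1 at 41.9 CPM, a gap of few UMIs (5 against 4).

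Mgll encodes monoacylglycerol lipase, which breaks down the endocannabinoid 2-arachidonoylglycerol, and it is the shortest of the 8 loci at 104 kb on chromosome 6 (88724412 to 88828360). Control mice held 63 and 134 UMIs of it in sodium channel principal cells (202 and 192 CPM) and knockout mice 27 and 14 UMIs (61.7 and 57.2 CPM). The mice of each group were close and the groups far apart, with a log2 difference of -1.71 (SE 0.06, n = 2 per group). With 27 and 14 UMIs in the knockout mice, counting error alone can exceed this SE. A count model (edgeR) fitted to the same sums gave an SE of 0.31. Both parts showed the same, from 235 and 211 CPM to 70.2 and 75.6 CPM in the Aqp3-high part and from 126 and 148 CPM to 36.4 and 35.6 CPM in the Aqp3-low part. On this scale its SE was the lowest of the 8 genes, but 2 mice per group do not measure the spread closely.

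Markers of the thick ascending limb were also lower in knockout mice, as sums over the class. Their summed level in sodium channel principal cells was 2713 and 1355 CPM in control mice and 718 and 487 CPM in knockout mice. Of the 7 markers, 5 were lower without overlap, with none at 0. This list was not alone. The summed markers of intercalated cells were at 416 and 176 CPM in control mice and 169 and 90.0 CPM in knockout mice. Those of the pelvic epithelium and the inner medullary collecting duct were also lower without overlap. Those of the connecting tubule, the distal convoluted tubule and endothelium were higher without overlap. In control mice Mgll was at 156 and 157 CPM in the thick ascending limb, at 160 and 190 CPM in intercalated cells and at 202 and 192 CPM in the principal cells. Without nuclei that held a UMI of Slc12a3, Slc12a1, Lrp2, Calb1, Slc4a1 or Slc26a4, which mark other segments, the log2 difference of Mgll was -1.23. Without called doublets it was -1.65, in both cases without overlap. The part of any of these marker lists in the difference of Mgll was not tested.

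Gramd1b encodes an endoplasmic reticulum protein that moves cholesterol from the plasma membrane, on chromosome 9 (40293233 to 40533614). It was at 327 and 534 CPM in control mice and at 187 and 356 CPM in knockout mice, so knockout mouse 2 lay above control mouse 1. The log2 difference was -0.69 (SE 0.58, n = 2 per group). Empty droplets held it at 485 and 413 CPM in control libraries and 619 and 544 CPM in knockout libraries, above the level of the nuclei in every mouse but control mouse 2. Its UMIs were uneven over nuclei: in knockout mouse 2, 4 of 86 nuclei held at least 50% of its 87 UMIs, and 3 of the 5 nuclei with most UMIs were called doublets. Without called doublets the log2 difference was -1.33 and the groups no longer overlapped, and without the 5 nuclei with most UMIs it was -1.12. A fixed 5 nuclei are a larger part of the 86 nuclei of knockout mouse 2 than of the 209 of control mouse 2. Their removal left 36 of 87 UMIs in the former and 308 of 373 in the latter.

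The shares of nuclei with a UMI show how many nuclei took part. For Mgat4c they were 69.2% (95% Wilson interval 59.8 to 77.3%) and 62.7% (55.9 to 69.0%) in control mice and 75.5% (67.8 to 81.9%) and 88.4% (79.9 to 93.6%) in knockout mice. For Mgll they were 39.4% (30.6 to 49.0%) and 41.6% (35.2 to 48.4%) in control mice and 16.5% (11.3 to 23.6%) and 15.1% (9.1 to 24.2%) in knockout mice. For Kcnh5 they went from 26.9% and 18.2% to 38.1% and 44.2%, and for Rbfox1 from 56.7% and 39.2% to 61.9% and 67.4%. The shares of Mgll, Kcnh5, Rbfox1, Mgat4c, Spock3, Egfem1 and Gfra1 stood apart between the groups, each without overlap. They come from the same UMIs as the CPM and from the contrast that chose the genes. How many of all genes stand apart by this measure was not computed, so nothing is read from the count. These intervals cover counting error only.

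Median depth was 2434 to 3022 UMIs per principal cell nucleus. Thinned to 1000 UMIs per nucleus, which left out 3 nuclei each of control mouse 1 and knockout mouse 1, the share with a UMI of Mgll was 17.8% and 18.2% in control mice and 5.88% and 6.98% in knockout mice. That of Mgat4c was 45.5% and 37.3% against 52.9% and 72.1%, and that of Egfem1 was 3.96% and 4.31% against 11.0% and 11.6%. For Gfra1 the thinned shares overlapped, at 3.96% and 2.39% against 3.68% and 16.3%. Endothelial nuclei, with a median of 1318 to 1430 UMIs, should lack most of these genes. After thinning, 0.285% to 0.588% of them held a UMI of Mgat4c, and at most 1 nucleus per mouse a UMI of Kcnh5, against 7.18% to 29.1% of principal cells for the latter. Gramd1b was found in 0.503% to 5.98% of thinned endothelial nuclei and in 11.0% to 39.2% of thinned principal cell nuclei. Mgll is expressed in endothelium itself, so that class gives no background for it.

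No small set of nuclei held the UMIs of Mgat4c or Mgll. The highest nuclei that held at least 50% of the Mgat4c UMIs were 12.9% to 19.8% of the nuclei of a mouse, and the 5 highest nuclei held 13.5% to 24.7%. For Mgll the 5 highest nuclei held 14.2% to 42.9% of UMIs, and no nucleus had more than 5. For Rbfox1 the top was steeper: single nuclei reached 52 UMIs in control mouse 2 and again in knockout mouse 2, and the 5 highest held 23.0% to 31.2%. Without the 5 highest nuclei of each mouse, the log2 difference of Rbfox1 was 1.11, of Kcnh5 1.30 and of Spock3 1.01, each without overlap. At least 3 of the 6 genes that were higher in knockouts had a UMI in 31.7% and 21.1% of nuclei in control mice and in 46.8% and 61.6% in knockout mice. In knockout mice, 4 of 139 and 3 of 86 nuclei had none of the 6, against 13 of 104 and 38 of 209 in control mice. Nothing is read from these joint counts, since the 6 genes were chosen by this contrast in the same nuclei. They were not thinned to equal depth or set beside other genes.

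**Figure D2:**
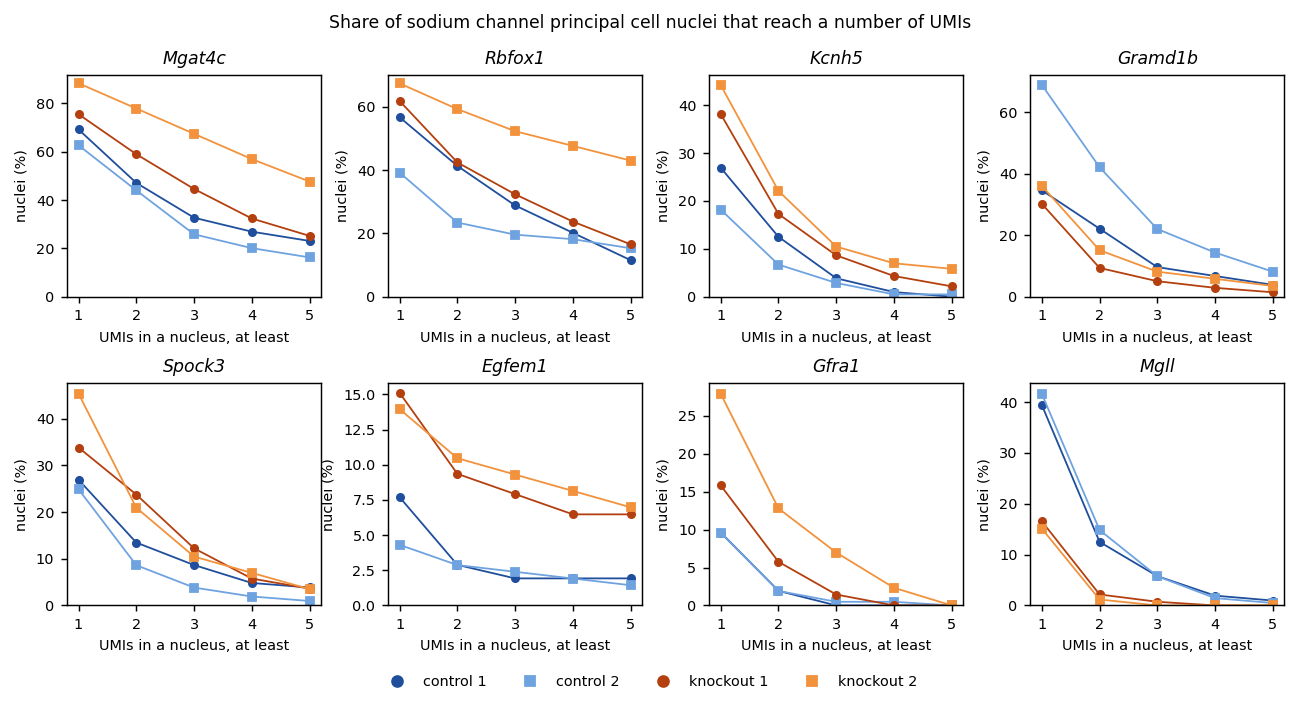
Share of sodium channel principal cell nuclei (%, linear axis from 0) with at least 1 to 5 UMIs of each gene, 1 line per mouse. For Mgll both knockout lines lie below both control lines from 1 UMI on (15.1% and 16.5% against 39.4% and 41.6%), and for Egfem1 all lines stay under 16% of nuclei.

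Within a gene, the order of the classes in control mice differed between the 8. Sodium channel principal cells were the highest class for Mgat4c, Kcnh5 and Spock3, apart from the next class in each case. Mgat4c followed in the inner medullary collecting duct at 61.4 and 113 CPM and in the connecting tubule at 13.6 and 50.6 CPM. Within the inner medulla it was higher in the deep part, at 104 and 183 CPM, than in the upper part, at 2.48 and 39.7 CPM. Kcnh5 was all but absent elsewhere, with at most 10 UMIs of a mouse in any class outside the principal cells. Spock3 was at 4.55 and 16.9 CPM in the connecting tubule, the second class, which overlapped with the proximal tubule at 9.12 and 5.64 CPM.

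The other 5 genes had their highest level in other classes. Rbfox1 was highest in the thin limb, at 993 and 482 CPM, which overlapped with the principal cells, and both were apart from the connecting tubule at 75.1 and 75.9 CPM. It was last in the inner medullary collecting duct, at 9.36 and 5.80 CPM. Gfra1 was highest in the proximal tubule, at 109 and 76.1 CPM, then in the principal cells and then in intercalated cells at 8.65 and 9.05 CPM. Gramd1b was highest in the proximal tubule at 2235 and 3222 CPM, then in the thin limb at 1820 and 1668 CPM, and the inner medullary collecting duct and the principal cells followed with overlapping values. Mgll was highest in the distal convoluted tubule, at 396 and 568 CPM, and lowest in the thin limb, at 35.3 and 30.6 CPM, with the principal cells between endothelium and intercalated cells. Egfem1 followed its connecting tubule maximum with the principal cells and, overlapping them, endothelium at 70.9 and 69.6 CPM, although 44 and 27 endothelial UMIs fell to 3 and 1 once called doublets were left out.

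**Figure D3:**
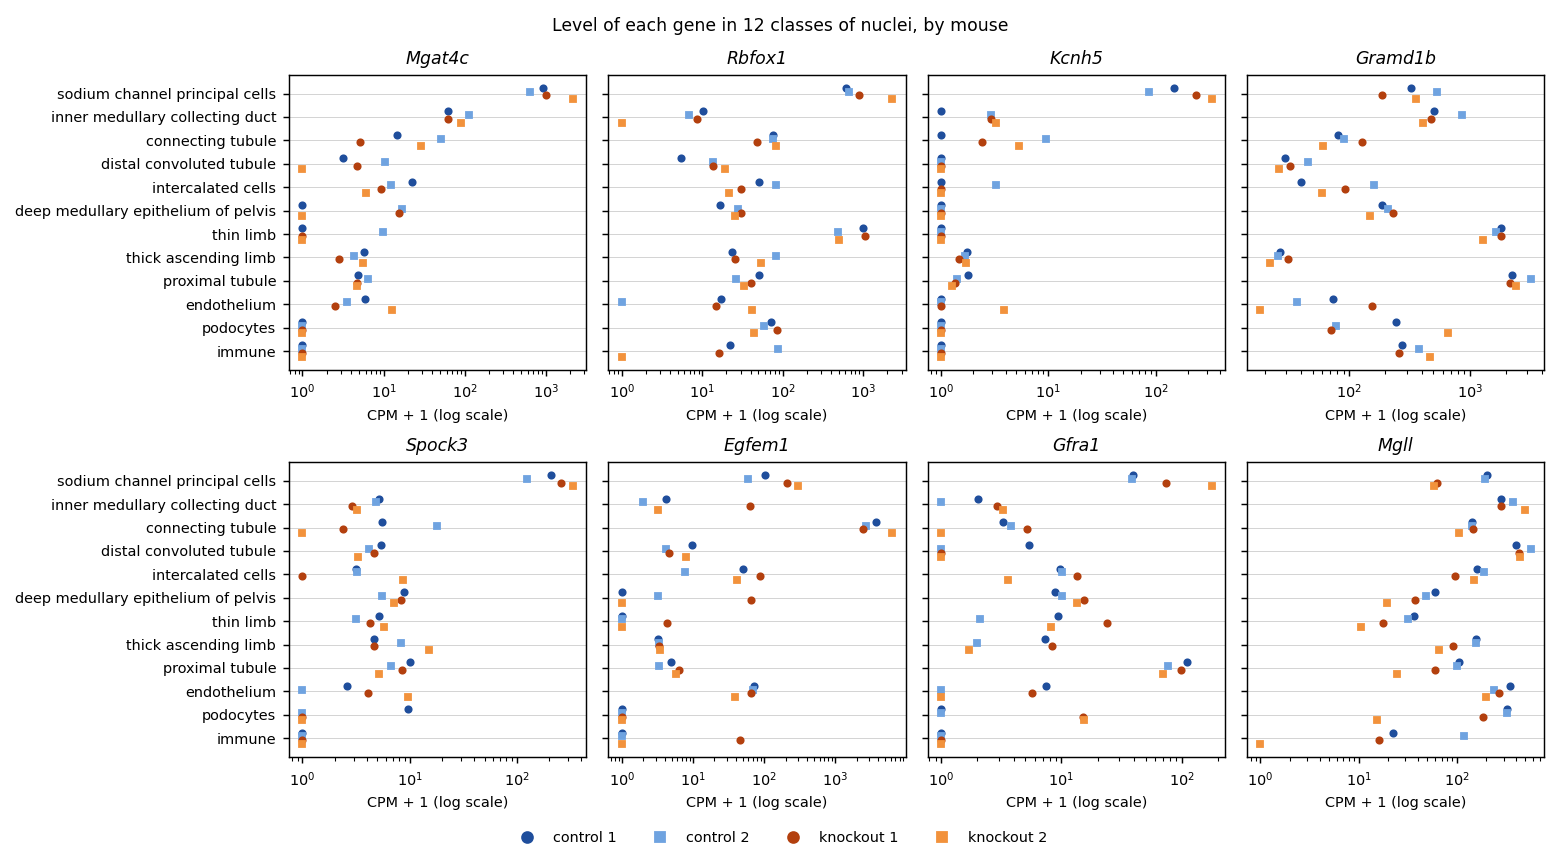
Level of each gene (CPM + 1, log axis) in 12 classes of nuclei, 1 point per mouse. Kcnh5 and Spock3 stand out in sodium channel principal cells, Egfem1 in the connecting tubule, at 2412 to 6293 CPM over the 4 mice, and Gramd1b in proximal tubule and thin limb.

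Outside the sodium channel principal cells the genotypes were compared by edgeR's quasi-likelihood test over all genes of a class, with Benjamini-Hochberg adjustment. The mice are the same as those that chose the genes, and with 2 mice against 2 an exact permutation of the mice cannot go below p = 0.333. Of 88 pairs of a gene and 1 of 11 classes, 53 had the 10 UMIs needed. None passed an adjusted p of 0.05 (the lowest was 0.851), and DESeq2 also called 0. At an unadjusted p under 0.05 there were 7 pairs (13.2%), 4 of them of Mgll, where 2.8% of all tests of these classes passed. Over all genes and the 11 classes, 0.00742% of 121330 tests were called. In the inner medullary collecting duct the test called 1 of 12019 genes (0.00832%), Slc12a3, the thiazide-sensitive cotransporter of the distal tubule. It had 11 and 10 UMIs there in control mice and 53 and 57 in knockout mice, and 5.19% of nuclei held any. Of these, 50 of knockout mouse 1 lay in the upper part and 55 of knockout mouse 2 in the deep part. Without called doublets 0 genes were called in this class. In the connecting tubule it called 0 of 11061 (0%), with 123 lower and 94 higher at an unadjusted p under 0.05, and DESeq2 called 2.

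Of the 53 pairs, 3 were higher and 13 lower in both knockout mice than in both control mice, which is 5.66% and 24.5%, where 14.6% and 14.8% of all genes of these classes stood apart in these directions. Without called doublets, 10 of the 13 were still lower and all 3 still higher without overlap. Mgll accounted for 6 of the 13 lower pairs, among 10 classes tested, and all 6 were still lower without called doublets. In the thick ascending limb it was at 156 and 157 CPM in control mice and 90.8 and 64.6 CPM in knockout mice (log2 fold change -1.03, SE 0.23, edgeR adjusted p = 1.00). In the proximal tubule it was at 104 and 99.9 CPM against 58.4 and 23.5 CPM (-1.34, SE 0.42, adjusted p = 1.00). Neither class derives from the ureteric lineage in which Hoxb7Cre is active. In empty droplets Mgll was at 92.5 and 95.0 CPM in control libraries and 63.5 and 44.5 CPM in knockout libraries. It was also lower without overlap in the thin limb, intercalated cells, the pelvic epithelium and podocytes. The intercalated cells among these belong to the collecting duct, where Hoxb7Cre is active. The paper also gives lower urinary tract epithelia as a site of recombination, and the pelvic epithelium was not checked for it. Whether the deletion, the library or RNA from empty droplets had a part in these differences of Mgll was not tested.

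In the classes next to the sodium channel principal cells Mgll overlapped. In the inner medullary collecting duct it was at 284 and 375 CPM in control mice and 283 and 489 CPM in knockout mice (log2 fold change 0.21, SE 0.34). In the connecting tubule it was at 143 CPM in both control mice and at 147 and 105 CPM in knockout mice (-0.19, SE 0.30). Neither passed the test. Whether the change of Mgll differed between principal cells and these classes was not tested, since the genes were chosen on the former.

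Of the 6 genes that were higher in the principal cells of knockouts, Kcnh5 and Gfra1 had too few UMIs for a test in either neighbour, as had Spock3 in the connecting tubule, and those tested there did not pass. Mgat4c overlapped in the inner medullary collecting duct, at 61.4 and 113 CPM against 61.1 and 89.7 CPM, and in the connecting tubule. Rbfox1 overlapped in the connecting tubule, at 75.1 and 75.9 CPM against 47.1 and 81.6 CPM. Gramd1b was lower without overlap in the inner medullary collecting duct, at 508 and 870 CPM against 477 and 406 CPM (log2 fold change -0.66, SE 0.35, edgeR adjusted p = 1.00). Egfem1 in the connecting tubule, where it is highest, was at 3772 and 2714 CPM in control mice and 2412 and 6293 CPM in knockout mice and overlapped.

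Egfem1 had the largest fold changes outside the principal cells, and these rested on single nuclei. In the inner medullary collecting duct knockout mouse 1 held 33 UMIs, against 3 and 1 in the controls and 1 in the other knockout (log2 fold change 3.95, SE 1.10, adjusted p = 1.00). All 33 lay in 2 nuclei, both called doublets, and without called doublets the counts were 3 and 1 in control mice and 0 and 1 in knockout mice. In the pelvic epithelium the 9 UMIs of knockout mouse 1 lay in 1 nucleus, also a called doublet.

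Relatives of the 8 genes were tested in sodium channel principal cells. Of 57 genes in 8 lists of the same families or pathways, 26 had enough UMIs and 0 passed an adjusted p of 0.05 by edgeR, where 0.00897% of all genes did (1 gene, Egf, a thick ascending limb marker, lower in knockouts). DESeq2 also called 0. At an unadjusted p under 0.05 by edgeR, 1 of the 26 was higher and 2 were lower (11.5%), where 3.47% of all genes of the class passed. The median log2 fold change of the 26 was -0.22, and that of all genes tested in the class was 0.00086. Rbfox2, the RBFOX paralogue with most UMIs, was at 89.7 and 107 CPM in control mice and 77.7 and 98.1 CPM in knockout mice. Among the glycosyltransferases, Mgat5 was at 141 and 140 CPM against 96.0 and 131 CPM. Among potassium channels of the Kcnh family, only Kcnh7 could be tested, with 19 UMIs in all.

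In the endocannabinoid list, 7 of 10 genes were tested, and their median log2 fold change was -0.78. Abhd12, another lipase of 2-arachidonoylglycerol, was at 70.5 and 81.6 CPM in control mice and 68.6 and 53.2 CPM in knockout mice (log2 fold change -0.33, SE 0.34, adjusted p = 0.999). Faah, which degrades anandamide, was at 64.1 and 85.9 CPM against 36.6 and 53.2 CPM (-0.84, SE 0.38, adjusted p = 0.999). In the GDNF list, 2 of 9 genes were tested, Nrtn with 19 UMIs and Gfra4 with 12, and Ret had too few UMIs. Fstl1, the most abundant of the testican and SPARC list, was at 173 and 193 CPM against 213 and 229 CPM (0.24, SE 0.28, adjusted p = 0.999).

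The genes most like the 8 were sought over 12 classes in 2 control mice, 24 points that share libraries and depth, among 14719 genes. Kcnh5 and Spock3 were alike (Pearson r = 0.967 for log2(CPM + 10)), and each was the other's nearest gene. The second gene was Mcoln3 for Kcnh5 (r = 0.962) and Phkg1 for Spock3 (r = 0.928). For Mgat4c the nearest were Gm49334 (r = 0.964) and 9230112J17Rik (r = 0.938), and for Rbfox1 Cdh2 (r = 0.757) and Gabre (r = 0.738). Egfem1 was nearest to S100g (r = 0.900), a calcium-binding protein of the connecting tubule, and to Gm33051 (r = 0.893). Gfra1 (Gm4952, r = 0.905, and Gm40123, r = 0.892) and Gramd1b (1700110K17Rik, r = 0.882, and Fut9, r = 0.871) were nearest to proximal tubule genes. Mgll had no close match, with Pde7b (r = 0.698) and Foxo4 (r = 0.649).

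Since AP-2 alpha binds DNA, the promoters of the 8 genes were searched for its palindromes GCCNNNGGC and GCCNNNNGGC, which read the same on both strands and may overlap. RefSeq promoters of GRCm38.p6, from 250 bases before to 50 after a start, were at hand for 7 of the 8 genes, 14 starts in all. Either motif lay in 5 of the 14 (35.7%), from 4 genes, and in 27.0% of all 32851 promoters of the same length. A match is a description of these letters, not evidence of binding. The 4 promoters printed here were chosen because they hold a match in a gene that stood apart between the groups, in lower case with the matches in capitals, 5′ to 3′ on the strand of the gene.
Mgll, chr6:88724162-88724461, plus strand: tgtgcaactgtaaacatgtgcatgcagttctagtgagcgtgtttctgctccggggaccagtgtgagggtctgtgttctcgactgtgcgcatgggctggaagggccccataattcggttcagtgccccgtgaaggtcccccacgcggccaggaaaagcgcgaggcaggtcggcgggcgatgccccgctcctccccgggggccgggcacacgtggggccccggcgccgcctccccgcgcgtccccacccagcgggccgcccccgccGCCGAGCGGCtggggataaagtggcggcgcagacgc
Kcnh5, chr12:75177283-75177582, minus strand: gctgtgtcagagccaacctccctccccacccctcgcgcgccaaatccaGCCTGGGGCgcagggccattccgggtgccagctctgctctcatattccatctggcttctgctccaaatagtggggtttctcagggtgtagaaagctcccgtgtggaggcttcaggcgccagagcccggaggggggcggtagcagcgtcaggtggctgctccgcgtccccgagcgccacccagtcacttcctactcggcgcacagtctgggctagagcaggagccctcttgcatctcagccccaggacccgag
Egfem1, chr3:29081537-29081836, plus strand: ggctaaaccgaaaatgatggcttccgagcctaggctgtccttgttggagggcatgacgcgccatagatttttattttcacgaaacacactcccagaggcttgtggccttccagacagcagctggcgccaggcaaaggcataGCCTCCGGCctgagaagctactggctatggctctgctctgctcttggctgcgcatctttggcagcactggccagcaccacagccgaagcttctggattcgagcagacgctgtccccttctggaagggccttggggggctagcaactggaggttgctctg
Mgat4c, chr10:102374187-102374486, plus strand: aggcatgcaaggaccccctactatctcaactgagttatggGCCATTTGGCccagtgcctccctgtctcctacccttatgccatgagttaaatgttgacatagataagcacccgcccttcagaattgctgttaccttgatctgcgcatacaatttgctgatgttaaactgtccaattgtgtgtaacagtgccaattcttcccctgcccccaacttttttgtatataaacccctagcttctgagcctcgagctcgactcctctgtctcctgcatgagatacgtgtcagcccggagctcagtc

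The match in Mgll, GCCGAGCGGC, began 14 bases after the start, and that of Kcnh5, GCCTGGGGC, began at position -202. The match of Egfem1, GCCTCCGGC, began at -109, and a second Egfem1 start (chr3:29082281-29082580) held GCCAGAGGGC at -57 and GCCGCCGGC at 36. Only the last of 4 Mgat4c starts held a match, GCCATTTGGC at -210. The promoters of Rbfox1, Spock3 and Gfra1 in this window held neither motif. Thus 3 of the 6 genes that were higher in knockouts held a match near a start and 3 did not. Genes with several starts have more chances of a match. The share of all genes with a match at any start was not computed, so nothing is read from this count.

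The direction of each difference in sodium channel principal cells was the same under every choice of nuclei and scale that was tried, as the plot of differences by choice shows. The genes were chosen on this difference, so the shared direction is no sign of stability. The range was widest for Egfem1. Kcnh5 ranged from 1.15 to 2.61 and Mgll from -2.03 to -1.23 on the log2 scale. The -2.03 of Mgll came from leaving out the 5 nuclei with most UMIs of each mouse. These 5 are a larger part of the nuclei in a mouse with fewer of them. Leaving out 1 mouse at a time gave 0.37 to 1.49 for Mgat4c, 0.45 to 1.84 for Rbfox1, 0.93 to 2.19 for Gfra1 and -1.76 to -1.66 for Mgll.

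**Figure D4:**
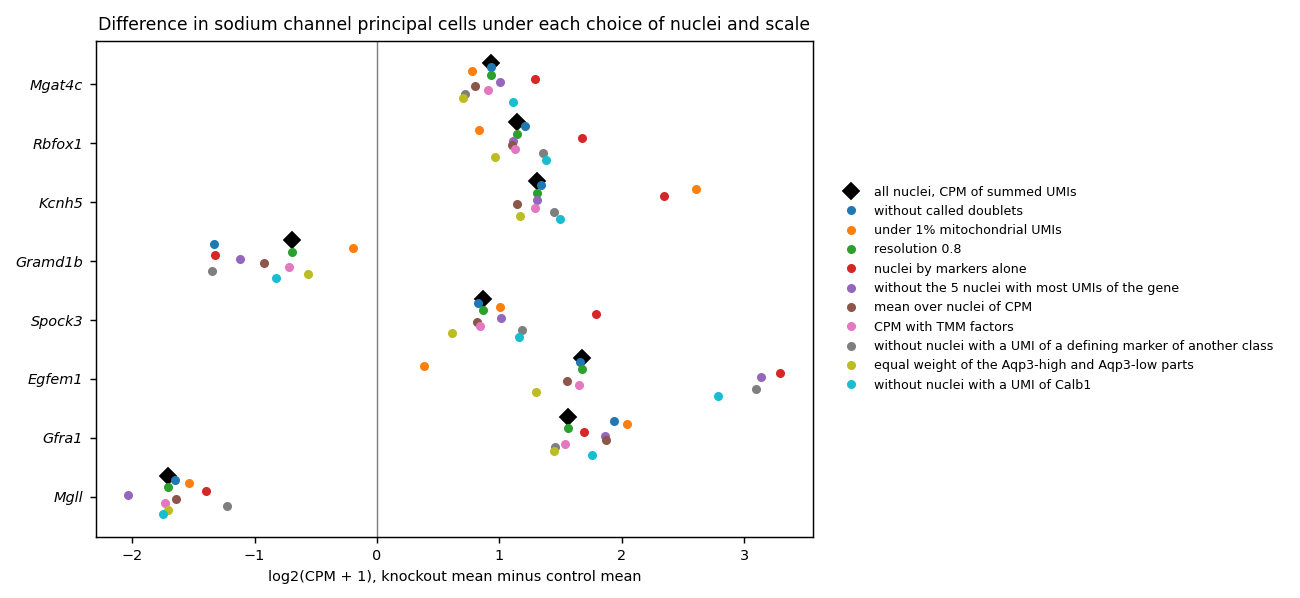
Difference of the means of log2(CPM + 1), knockout minus control (linear axis), for each gene in sodium channel principal cells; the diamond is the value over all nuclei and each dot another choice of nuclei or scale. All points of a gene lie on the same side of 0, with Egfem1 spread from 0.38 to 3.30 and Gramd1b from -1.35 to -0.20. The dot of Egfem1 without the 5 nuclei with most UMIs (3.14) rests on 3 and 5 UMIs in control mice.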

How the data were processed

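Single-nucleus RNA-seq libraries of 2 control and 2 knockout mice were analysed, 1 per mouse. The deposited files hold raw UMI counts per gene and barcode, empty droplets included, which the authors made with Cell Ranger 3.0.2 (listed in the submitters' processing notes beside Seurat 3.2.1.35) and mm10. Whether intronic reads were counted is not given in the sources used here. The 10000 barcodes richest in UMIs of each library were filtered on detected genes (over 500, under 4000) and on mitochondrial UMIs (below 5%).

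Seurat 5.3.0 served to integrate and cluster the nuclei (2000 variable genes, 30 dimensions, resolution 0.5) and named from marker lists. Clusters with markers of several classes, or damaged, were left out. Thresholds for this were set after the clusters were seen. Principal cell nuclei were clustered again (resolution 0.2); subclusters with Scnn1b in at least 25% of nuclei were called sodium channel principal cells, and 57 nuclei between them and the inner medulla and 50 mixed nuclei were left out. Doublets were called with scrublet (scanpy 1.11.5) at 0.8% per 1000 nuclei and kept.

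For each class, summed UMIs of the mice entered edgeR 4.0.16 (TMM, quasi-likelihood, no covariate) in R 4.3.3 where a gene reached 10 UMIs in all, and an adjusted p under 0.05 was called; p-values measure the spread between these mice only. DESeq2 1.42.0 was an alternative, as were no TMM, other filters, a replicate block, other nuclei and each mouse left out. The fits were tested on simulated data. The genes, the lists and the tests were chosen with earlier results of these data known. Genes named are the 8, called relatives or otherwise up to 2 relatives per list with most UMIs, the 2 genes most like each, and markers. In sodium channel principal cells the 8 genes were compared only by description. The paper's own single-nucleus tests pooled nuclei and were not used here. Its bulk RNA-seq of whole kidneys and its in situ hybridization counts compared animals, and were not used either. Shares have 95% Wilson intervals, which cover counting error only.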

Additional observations from a re-analysis of the deposited data

Results flagged for a closer look

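In 6 pairs of a gene and a class, the knockouts were lower without overlap, while in sodium channel principal cells they were higher without overlap. Of the 43 tested pairs of the genes other than Mgll, 7 were lower without overlap, these 6 and 1 of Gramd1b. Among all genes of these classes 14.8% were lower in this way, so nothing is read from the count. The log2 fold changes by edgeR in these classes were -0.91 for Spock3 in the inner medullary collecting duct, -1.26 for Mgat4c and -1.40 for Rbfox1 in intercalated cells, -0.33 for Mgat4c and -1.003 for Kcnh5 in the proximal tubule, and -0.38 for Egfem1 in endothelium. None of these passed an adjusted p of 0.05. The difference between the classes was not tested, because the genes were chosen on the principal cells. The counts were low for Spock3 (4 and 4 UMIs against 1 and 1) and for Kcnh5 (10 and 3 against 5 and 3). Without called doublets 3 of the 6 overlapped between the groups: Rbfox1 in intercalated cells (20 and 11 UMIs in control mice, 13 and 8 in knockout mice), Kcnh5 in the proximal tubule (10 and 0 against 4 and 3) and Egfem1 in endothelium (3 and 1 against 2 and 0, from 44 and 27 against 41 and 13). Groups of 2 mice are too small for a test of outlying samples.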

How the results depend on the processing

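All 160 log2 differences of the 8 genes in sodium channel principal cells under alternatives kept their direction, and 16 moved by more than the spread between mice. The kept direction is no sign of stability, since the genes were chosen on this difference. For genes without overlap between groups, leaving out a mouse cannot reverse it. A finer clustering, counted among the alternatives, kept the same nuclei of this class and so only repeated the main values. The number of genes without overlap between groups, 7, ranged from 5 (under 1% mitochondrial UMIs) to 8. With equal weight of the 2 parts it was 6. That alternative was added after seeing the data, as were the removal of nuclei with markers of other classes or Calb1 and the fitted fold change. Among all genes, 15.3% were higher and 14.8% lower without overlap in the main nuclei. These shares were not computed for the alternatives, so nothing is read from the range. In the inner medullary collecting duct 1 gene was called, 3 without a filter on low counts, 0 without called doublets, and 7 to 29 with a mouse left out. In the connecting tubule 0 genes were called, 2 by DESeq2, 20 without a filter, 17 with the replicate block, and 0 to 46 with a mouse left out (46 without knockout mouse 1). Calls of the 8 genes outside the principal cells numbered 0, 1 without a filter on low counts, 1 with the replicate block (Mgll in the thick ascending limb in both, adjusted p = 0.0293 and 0.0166) and 1 to 3 with a mouse left out: Egfem1 in the inner medullary collecting duct without control mouse 1, control mouse 2 or knockout mouse 2, Egfem1 in the pelvic epithelium and Gramd1b in endothelium without knockout mouse 2, and Mgll in podocytes without knockout mouse 1. The causes were not tested, apart from the doublets that held Egfem1. No relative was called under any alternative. Mice with the same number deviated together (correlation over genes 0.12 to 0.59 in 12 classes), but the labels do not pair them, so the block shares only a number. Immune nuclei could not be fitted under 1% mitochondrial UMIs because a mouse had under 5000 UMIs.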
